A study of Mus musculus with 3 samples.

Results

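The high-grade library (T3) held 1126 droplet barcodes rich in haemoglobin transcripts, out of 4543 barcodes retained in it and 16690 retained in the series. They were chosen by their own counts. A retained barcode had at least 200 detected genes and at most 20% mitochondrial transcripts, and a haemoglobin-rich one held at least 10 UMIs (unique molecular identifiers, each counting 1 captured transcript) of Hba-a1, Hba-a2, Hbb-bs and Hbb-bt together. The haemoglobin levels are therefore a description of the choice, and the results rest on the other transcripts of these barcodes. The comparison set was the 3417 retained T3 barcodes with fewer than 10 haemoglobin UMIs, called the other barcodes here.

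The series profiled CD45+ cells of C57BL/6 mouse colon, isolated by flow cytometry, with 1 droplet 3′ library per group. C came from healthy mice without treatment, T1 from colon with low-grade and T3 from colon with high-grade intraepithelial neoplasia. T1 and T3 share the model that gave the neoplasia: the carcinogen azoxymethane (AOM) at 12 mg/kg and then 3 cycles of 2.5% dextran sulfate sodium (DSS), each of 7 days followed by 14 days of water. The model was started at 6 to 8 weeks of age, all 3 libraries passed the same CD45 sort, and the number of mice per library is not given. The labels call the mice male, yet the haemoglobin-rich barcodes held 1430 UMIs of Xist, the transcript of the inactive X chromosome. With 1 library per group no difference between conditions has a replicate check, and no p-value was computed. The 95% intervals below cover counting error only.

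Haemoglobin of adult mice is built from pairs of alpha and beta chains around haem, and it fills the red cell. Red cells lose their nucleus as they mature, and the youngest circulating ones, the reticulocytes, still hold RNA that is mostly globin message. Mature red cells do not carry CD45, the leukocyte surface protein encoded by Ptprc and used for this sort. In a droplet experiment a barcode stands for a droplet, which can hold 1 cell, several cells or RNA from the surrounding fluid.

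The alpha genes lie at chr11:32283511-32284465 (Hba-a1) and chr11:32296489-32297298 (Hba-a2), both on the plus strand of GRCm38. The beta genes lie at chr7:103826534-103828096 (Hbb-bs) and chr7:103812524-103813996 (Hbb-bt), both on the minus strand. The alpha transcripts are identical at 537 of 538 aligned bases (99.8%), so the split of UMIs between Hba-a1 and Hba-a2 is uncertain and they are summed below. The beta transcripts are identical at 92.7% of 626 aligned bases and can be told apart more readily. The 30 bases around the TATA box of the 4 genes whose sum chose the barcodes are shown because they carry the same split, with a shared alpha sequence and separate beta sequences. Capitals mark the TATAA match. They are RefSeq sequences of GRCm38.p6, 5′ to 3′ on the gene's strand.
Hba-a1, chr11:32283635-32283664, plus strand: ttggagggcaTATAAgtgctacttgctgca
Hba-a2, chr11:32296452-32296481, plus strand: ttggagggcaTATAAgtgctacttgctgca
Hbb-bs, chr7:103827938-103827967, minus strand: gggcagagcaTATAAggtgaggtaggatca
Hbb-bt, chr7:103813932-103813961, minus strand: gcattgggtaTATAAagctgagcagggtca
All 30 bases were the same in the alpha genes, whereas 17 of 30 were the same in Hbb-bs and Hbb-bt. Motifs were searched on both strands of the 120 bases before the RefSeq start. CACCC was found there in each of the 4 genes and in 31.7% of the 32851 promoters with a RefSeq sequence. CCAAT was found in each of the 4 and in 21.3% of all promoters. The shares for TATAA were each of the 4 and 11.8%. GATAA was found in none of the 4 and in 10.5% of all promoters. Alas2 (chrX:150547375-150570638, plus strand), which encodes the first enzyme of haem synthesis in red-cell precursors, held matches to CACCC and also to GATAA. GENCODE M21 places the starts of some of these genes further upstream than RefSeq does.

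T3 differed from the other libraries in how widely haemoglobin was found. Retained barcodes with at least 1 haemoglobin UMI made up 78.5% of T3, 2.15% of C and 1.38% of T1. The haemoglobin-rich share was 24.8% of retained barcodes in T3 (95% exact Clopper-Pearson interval 23.5% to 26.1%), 0.0666% in C (4 barcodes of 6004) and 0 of 6143 in T1, for which the upper Clopper-Pearson limit is 0.0600% (3 counts of the total would be 0.0488%). T3 was also the shallowest library, with a median of 1803 UMIs per retained barcode beside 4933 in C and 5272 in T1, so haemoglobin was most frequent in the shallowest library. The neutrophil transcript S100a8 was also more abundant in T3, with 20599 UMIs there, 590 in C and 274 in T1. Deposited UMIs came to 35489195 in C, 37208603 in T1 and 15898397 in T3. The libraries shared 35 to 39 barcode sequences pairwise, and 3 of the haemoglobin-rich barcodes had a sequence also present in T1 and 0 in C.

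The make-up of the haemoglobin UMIs differed between libraries as well. In T3 barcodes with fewer than 10 haemoglobin UMIs, Hbb-bs gave 58.1% of them and Hbb-bt 7.26%. In the corresponding barcodes of C and T1, Hbb-bt gave 68.3% of 202 UMIs and 79.7% of 123, and Hbb-bs 4.95% and 9.76%. The order of the beta genes was thus reversed between T3 and both other libraries at this low level. Among haemoglobin-rich barcodes the C library was led by Hbb-bs (76.4% of 483 UMIs, of which 444 stood in 1 barcode).

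Within T3, haemoglobin was not spread as a smooth tail. No haemoglobin UMI was found in 977 retained barcodes, 1 to 3 in 2141 and 4 to 9 in 299. Above the threshold, 237 barcodes held 10 to 19, 647 held 20 to 49, 212 held 50 to 99, 11 held 100 to 999 and 19 held at least 1000. The 81 barcodes just inside the threshold (10 to 12 UMIs) had a median of 631 other UMIs, and the 75 just outside (7 to 9 UMIs) had 584. T-cell and B-cell transcripts stood together in 60.5% of those just inside and 57.3% of those just outside, so the threshold did not separate different kinds of barcode at its edge.

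**Figure D1:**
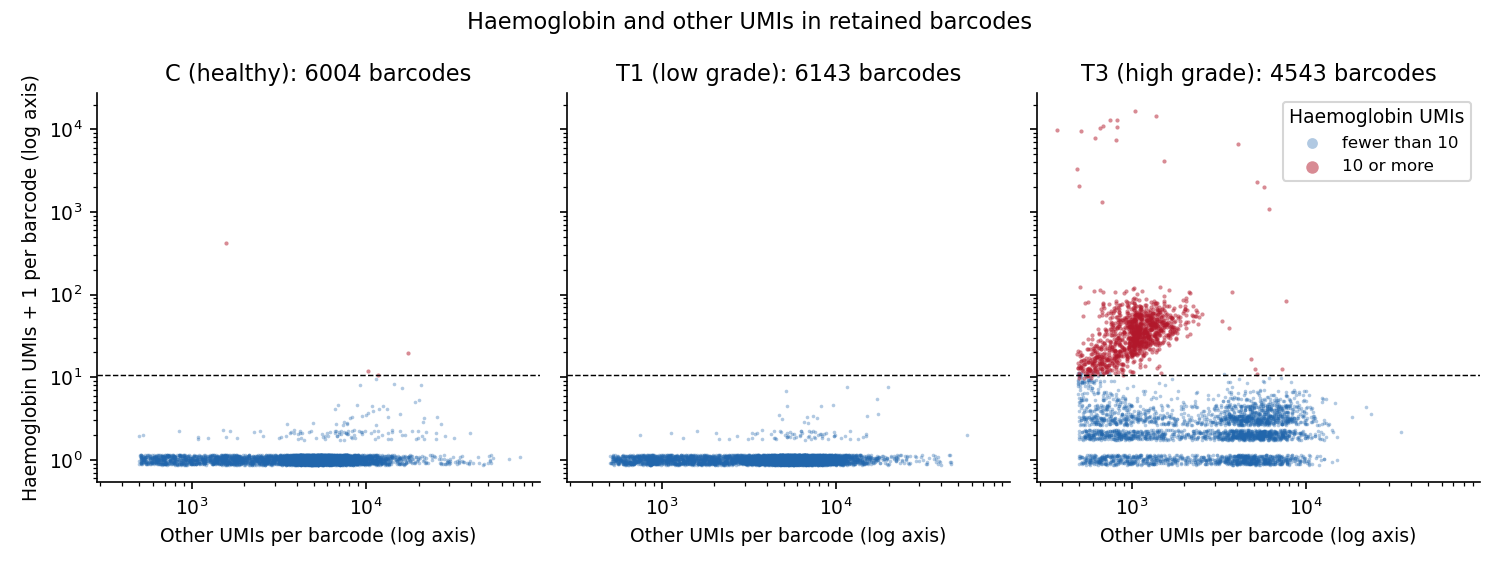
Haemoglobin UMIs plus 1 (vertical, log axis, with a small random vertical shift) against all other UMIs (horizontal, log axis) for each retained barcode of C, T1 and T3. Red points hold at least 10 haemoglobin UMIs (dashed line, which the shift can carry a point across): 4 in C, 0 in T1 and 1126 in T3, where most form a compact group near 1000 other UMIs and 19 barcodes lie at 1000 or more haemoglobin UMIs.

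The haemoglobin-rich barcodes were of very unequal kinds. In 16 of them haemoglobin made up at least 50% of all UMIs, and these 16 held 76.4% of the haemoglobin UMIs of the 1126. In the other 1110 it was a minor part, with a median of 32 UMIs (interquartile range 21 to 46) or 2.77% of the barcode. These 1110 were shallow and alike, with a median of 1043 other UMIs (interquartile range 818 to 1267) and 474 genes, beside 3679 other UMIs and 1231 genes in the other barcodes. Values of other transcripts below were computed after the haemoglobin UMIs had been removed. The exception is the mitochondrial share of a barcode, which is of all its UMIs with haemoglobin included.

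Of the 16 haemoglobin-dominated barcodes, 13 had transcripts of late red-cell development. Haemoglobin ranged from 63.5% to 96.5% of UMIs over the 16 (median 93.5%), and exceeded 90% in 11. The remaining UMIs of the 16 numbered 721 at the median, over 255.5 genes. Mitochondrial transcripts were 0.218% of all UMIs at the median, and 8.30% of the haemoglobin-free UMIs of the 16 summed. Alas2 was found in 13 of the 16, with a lowest, median and highest count of 0, 13 and 30 UMIs. Bpgm, the enzyme that makes 2,3-bisphosphoglycerate, had 0, 16 and 29. Slc4a1, encoding the anion exchanger of the red-cell membrane, was found in 9. High counts of these genes stood together: 13 barcodes had 15 to 67 UMIs of the 3 genes summed, and the remaining 3 had 0.

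Those 3 barcodes differed from the 13 in their globin make-up. Hbb-bt was 0.339%, 0.443% and 0.545% of their haemoglobin UMIs, against 5.25% to 16.4% in the 13. Their haemoglobin shares of 63.5%, 70.5% and 86.7% lay among the lowest of the 16. Their mitochondrial shares of all UMIs, at 8.12%, 8.50% and 3.54%, were the highest. A lower haemoglobin share by itself raises the share of all UMIs left to other transcripts. One of the 13, with haemoglobin at 64.1%, also held 25 UMIs of 6 T-cell genes (Cd3d, Cd3e, Cd3g, Trac, Trbc1 and Trbc2) over 1251 genes. S100a8 or S100a9 was found in 1 of the 16, and any of 7 B-cell genes in 4.

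The same split ran through all 99 T3 barcodes that were at least 50% haemoglobin, 83 of which had too few genes to be retained. Hbb-bt was under 5% of haemoglobin UMIs in 48 of them (median 0.836%, highest 3.85%) and at least 5% in 51 (median 9.91%, lowest 5.21%). The 5% mark was chosen after the values were seen. Alas2, Slc4a1 and Bpgm summed to 7.83 UMIs per 10000 haemoglobin UMIs in the 48 and to 29.2 in the 51. Among the 83 left out, the values were 8.36 in 45 barcodes and 26.3 in 38. The medians were 3.78 in the 48 and 27.3 in the 51, but the groups overlapped, with up to 25.9 in the 48 and down to 0 in the 51. At least 1 of these UMIs was found in 28 and 49 barcodes, at unequal depth: median haemoglobin was 2382 and 7242 UMIs.

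**Figure D2:**
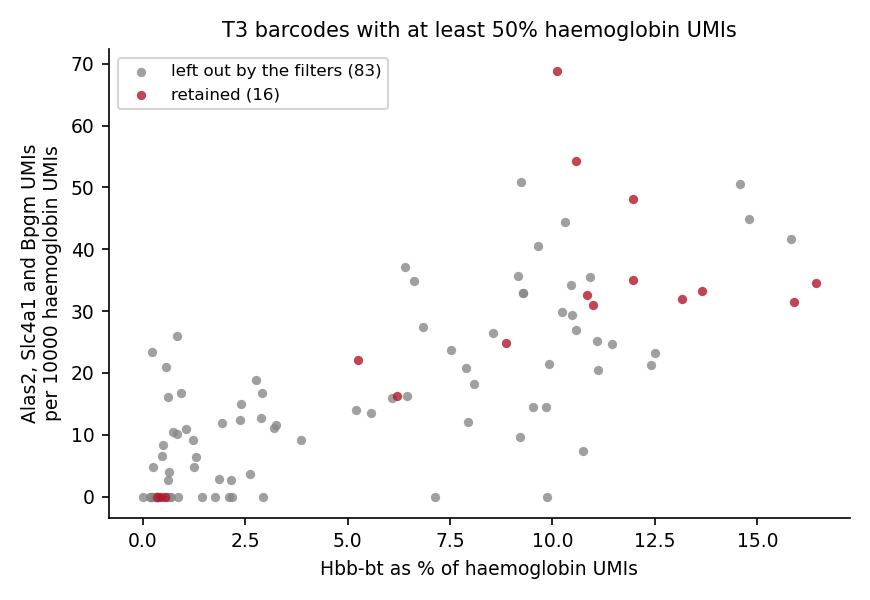
Hbb-bt as a percentage of haemoglobin UMIs (horizontal) and UMIs of 3 red-cell genes (Alas2, Slc4a1 and Bpgm) per 10000 haemoglobin UMIs (vertical) in the 99 T3 barcodes with at least 50% haemoglobin. The 16 retained barcodes are red and the 83 left out are grey; 3 of the red points lie at the lower left, and the other 13 have Hbb-bt shares of 5.25% or more.

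Over the 1126 barcodes together, red-cell transcripts were therefore carried by few of them. Of the 20 genes in the erythroid list, 19 were matched, and the 2 with at least 100 UMIs over both sets were higher, among them Alas2 with 258 UMIs against 5, a log2 ratio of 9.05 (7.81 to 10.69). Ratios are of UMIs per 1000000 haemoglobin-free UMIs (CPM), and genes are called higher or lower below if their CPM differed at least 2-fold, if at least 100 UMIs were counted over both sets and if the interval did not include equality. By that rule of size, which is not adjusted over genes, 0.543% of the 7922 genes with enough UMIs were higher and 3.62% lower. Slc4a1 had 35 UMIs against 0, at least 120-fold higher when 3 UMIs are set over the other barcodes. Tspo2, a membrane protein gene of late red-cell precursors, had 19 UMIs against 2, with 18 of them in the 16. Klf1 and Gata1, transcription factors of the red-cell lineage, were among 6 genes of the list with no UMI in the 1126, beside 3 and 8 UMIs in the other barcodes. The 1126 held 1250049 haemoglobin-free UMIs and the other barcodes 12866326, so these counts are too low to show a difference. Alas2 was found in 48 of the 1126 barcodes, so few of them carried this erythroid marker.

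In the 1110 barcodes without haemoglobin dominance, the red-cell genes were scarce but not absent. Alas2 summed to 39 UMIs in 35 barcodes, Bpgm to 62 in 55 and Slc4a1 to 3 in 3. The erythroid list summed to 68 UMIs against 42 in the deeper other barcodes, or 55.1 CPM against 3.26 (log2 ratio 4.08, 3.50 to 4.67). With both sets below 1500 other UMIs it was 57.5 CPM against 7.32, from 56 and 7 UMIs (2.97, 1.84 to 4.35). After each barcode was reduced to 500 haemoglobin-free UMIs, at least 1 UMI of Alas2, Slc4a1 or Bpgm was left in 4.08% of them and in 0.558% of the other barcodes. Other barcodes with at least 5 T-cell UMIs and no B-cell UMI gave 0.888%. The difference is thus one of low counts spread over many barcodes, with at most 5 UMIs of these genes in any.

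Genes that stay abundant in reticulocytes behaved in the same way. Of 15 with enough UMIs, 12 were higher in the 1126, 1 was lower and the median log2 ratio was 1.32, beside -0.21 over all genes. Bpgm had 278 UMIs against 103 (4.80, 4.46 to 5.14). Ube2l6, encoding an ISG15-conjugating enzyme, had 116 against 72 (4.05, 3.62 to 4.50). Mkrn1, a ubiquitin ligase, had 312 against 832 (1.95, 1.76 to 2.14). Blvrb (biliverdin reductase B, 1.43), Prdx2 (peroxiredoxin 2, 1.32), Gpx1 (glutathione peroxidase 1, 1.18), Slc25a37 (mitoferrin 1, 1.12) and Tent5c (a poly(A) polymerase, 1.09) were higher as well. Xpo7, encoding an exportin, was the 1 lower, with 19 UMIs against 405 (-1.05, -1.80 to -0.39).

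These calls rested on the 16 barcodes. Without them, 1 of 12 reticulocyte genes with enough UMIs was higher, namely Bpgm (2.65, 2.17 to 3.12), and Xpo7 was lower. Mkrn1 then had 0.42 (0.12 to 0.71), Gpx1 0.43 (0.24 to 0.61) and Prdx2 0.59 (0.33 to 0.83), and the list median was 0.33. The background without the 16 was 0.215% of 7912 genes higher and 3.56% lower. Erythroid and reticulocyte lists summed to a log2 ratio of 0.80 (0.76 to 0.84) with the 16 and 0.24 (0.20 to 0.28) without them. In the 16 alone, 15 of 15 reticulocyte genes were higher (median 6.68), beside 2.67% of 7714 genes higher and 1.5% lower.

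Few genes of haem synthesis and iron handling were higher. In the 1126, 2 of 8 haem synthesis genes were higher, Alas2 and Fech, which encodes ferrochelatase and inserts the iron (63 UMIs against 83, 2.97, 2.47 to 3.46). Urod was at 0.22 and Cpox at -0.66, neither past the rule, and without the 16 none of 6 was higher or lower. Of 9 genes of iron and haem handling 2 were higher, Blvrb and Slc48a1, encoding a haem transporter (1.30), and without the 16 none was. The iron-storage transcripts Fth1 (0.12) and Ftl1 (0.16) lay close to the other barcodes.

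T-cell and B-cell transcripts stood side by side in the 1110 barcodes more often than in the other barcodes of T3 as a whole (79.3% against 38.2% with at least 1 UMI of each, at median depths of 1043 and 3679). Their balance was measured in the barcodes of each set with at least 5 UMIs of the 6 T-cell genes and 7 B-cell genes (Cd79a, Cd79b, Ms4a1, Pax5, Ebf1, Ighm and Ighd). T-cell UMIs were between 25% and 75% of that sum in 453 of 594 haemoglobin-rich barcodes, or 76.3% (72.6% to 79.6%). The same held for 3.14% of 2739 other T3 barcodes, 4.50% of 5535 in C and 3.83% of 5591 in T1. Nearly pure balances, below 10% or above 90%, made up 4.21% of haemoglobin-rich barcodes and 85.3% of the other T3 barcodes. The median T-cell share was 57.1%.

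The mixture was also found when all sets were limited to shallow barcodes. Among barcodes with fewer than 1500 other UMIs, 76.6% of 483 haemoglobin-rich and 6.24% of 545 other T3 barcodes had a balance between 25% and 75%. Under the same limit C reached 17.9% and T1 8.76%. The limit did not make the depths equal: the median of other UMIs was 1096 in the haemoglobin-rich, 913 in the other T3, 985.5 in the C and 1046 in the T1 barcodes. When exactly 5 of the T-cell and B-cell UMIs were drawn from each barcode, both kinds were drawn in 91.6% of haemoglobin-rich and 17.4% of other T3 barcodes. In haemoglobin-rich barcodes with at least 1500 other UMIs the share between 25% and 75% was 74.8% of 111 (65.6% to 82.5%).

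**Figure D3:**
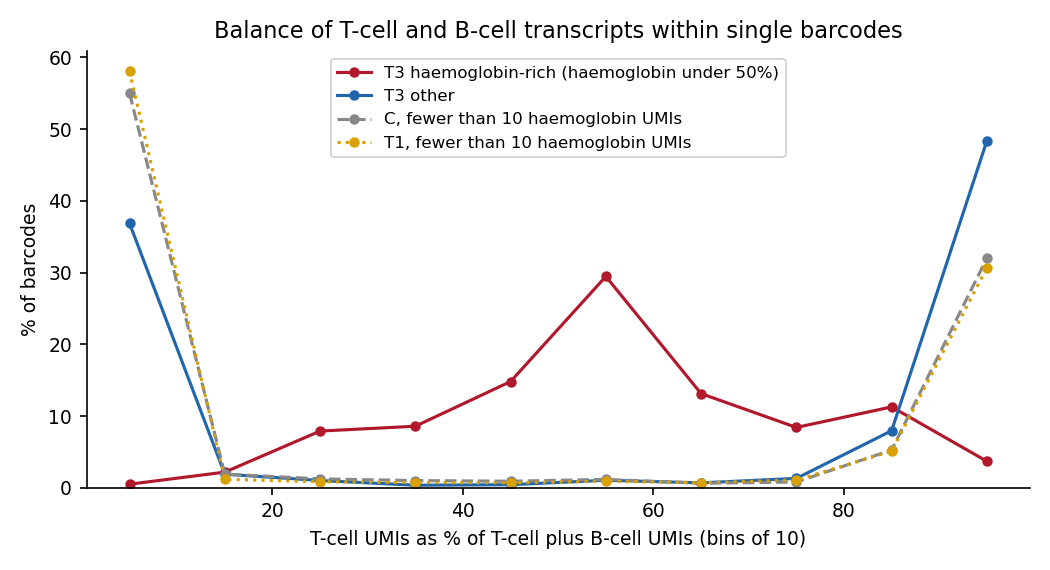
T-cell UMIs as a percentage of T-cell plus B-cell UMIs (horizontal, bins of 10 points) and the percentage of barcodes in each bin (vertical), for barcodes with at least 5 such UMIs. The haemoglobin-rich T3 barcodes (red) peak in the middle, around their median of 57.1%, whereas the other barcodes of T3, C and T1 lie at both ends.

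Neutrophil transcripts belonged to the same mixture. S100a8 and S100a9 encode the calprotectin subunits, the most abundant proteins of neutrophil cytosol. At 500 UMIs per barcode, 1 of them was found in 65.6% of the 1110 (62.8% to 68.4%) and 6.79% of the other barcodes. Without that reduction the shares were 86.7% and 16.7%, at median depths of 1043 and 3679 other UMIs. In other barcodes with at least 5 T-cell UMIs and no B-cell UMI, the reduced share was 2.79%, and in those with at least 5 B-cell and no T-cell UMI it was 4.38%, at median depths of 4618 and 3128. The level in the haemoglobin-rich barcodes thus lay above that in both lymphocyte groups of the same library. T-cell, B-cell and neutrophil UMIs all stood together in 29.6% of the 1110 at 500 UMIs and in 1.15% of the other barcodes, or 3.19% of the shallow ones.

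The mixture was also even from barcode to barcode. The variance divided by the mean, which is 1 when UMIs fall on barcodes at random, was computed at 500 UMIs per barcode. For S100a8 plus S100a9 it was 1.09 in the 1110 and 108 in the other barcodes, where the top 1% of barcodes held 91.8% of these UMIs. The most in 1 haemoglobin-rich barcode was 18 and in 1 other barcode 2729. For the T-cell genes the values were 1.09 and 2.12, and for the B-cell genes 1.04 and 4.43. Igha, the constant region of immunoglobulin A made by plasma cells, had 1.21 and 96.7, with 4251 of its 4926 other UMIs in a single barcode. Of 791 genes with a mean of at least 0.05 in both sets, 685 had the lower value in the haemoglobin-rich barcodes (86.6%), and 3 exceeded 1.5 there against 126 in the other barcodes.

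**Figure D4:**
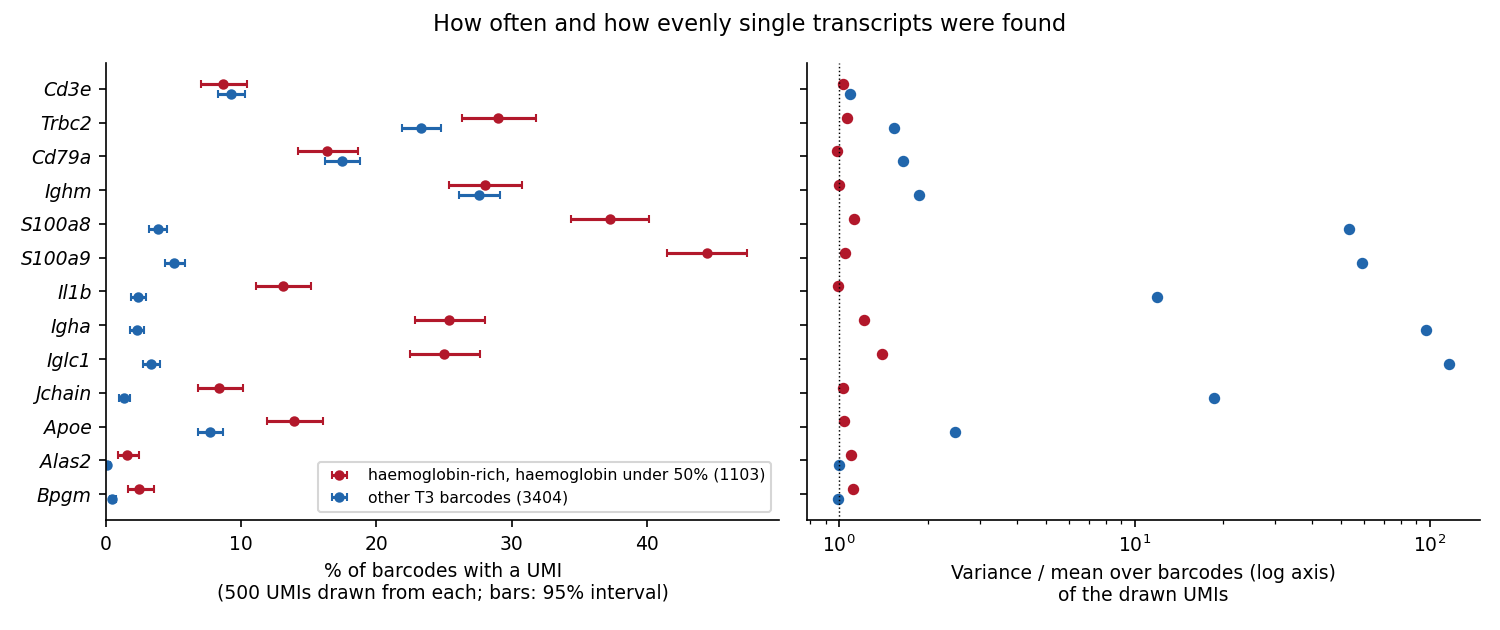
Left, the percentage of barcodes with at least 1 UMI of each gene after 500 haemoglobin-free UMIs were drawn from each, with 95% Clopper-Pearson intervals; right, the variance divided by the mean of those UMIs on a log axis. The haemoglobin-rich barcodes (red, 1103 of the 1110) held S100a8, S100a9, Igha and Iglc1 more often than the other barcodes (blue, 3404), with values close to 1 on the right.

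Summed over barcodes, the profile of the 1110 lay close to that of all other T3 barcodes added together. Of 7912 genes, 95.3% were within 2-fold, and the correlation of log2(CPM + 1) across genes was 0.967 (genes share libraries and are not independent replicates). None of 22 T-cell genes, 20 B-cell genes or 9 MHC class II genes was higher or lower, with or without the 16. Over all genes, with the 16 included, 0.543% were higher and 3.62% lower. Such shares give few or no calls in lists of this size. Trbc2, a T-cell receptor constant region, had 901 UMIs against 9418 (-0.02, -0.12 to 0.08), and Cd3e, a CD3 chain, 238 against 2876 (-0.23, -0.43 to -0.04). Cd79a, a signalling chain of the B-cell receptor, had 457 against 6026 (-0.36, -0.50 to -0.22), and Ighm, its heavy chain, 811 against 8658 (-0.05, -0.16 to 0.05). Cd4 was at -0.74 and Cd8a at 0.43, neither past the rule. The summed lists gave -0.13 (-0.17 to -0.10) for T cells and -0.24 (-0.28 to -0.19) for B cells.

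Set beside shallow barcodes alone, the profile was not close. With both sets below 1500 other UMIs (medians 1016 and 807) and without the 16, 10.7% of 2479 genes were higher and 37.4% lower in haemoglobin-rich barcodes, 51.9% were within 2-fold and the correlation was 0.781. There 11 of 16 B-cell genes were lower (median -1.23) and 1 T-cell gene was higher and 3 lower of 22 (median 0.00), beside a median of -0.71 over all genes. Ribosomal protein transcripts made up 38.8% of other UMIs in the 1110, 35.1% in all other barcodes and 13.5% in the shallow ones. Malat1, a nuclear RNA, made up 2.06%, 2.67% and 6.58%. Mitochondrial transcripts were 9.99% of UMIs at the median in the 1110, 5.89% in all other and 10.5% in shallow other barcodes. Ptprc, which encodes the sorted CD45, was at -0.63 (-0.73 to -0.52) in the 1110 against all other barcodes. It was at -1.59 with both sets below 1500 other UMIs, and it was found in 519 of the 1110.

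Neutrophil genes were the exception in the sum. Of 25 with enough UMIs, 6 were lower, none was higher and the median was -0.57. Ngp, encoding a granule protein of immature neutrophils, had 1 UMI against 270 (-4.71, -10.02 to -2.22), and Slpi, a secreted protease inhibitor, 68 against 2954 (-2.08, -2.45 to -1.73). Cxcr2, a chemokine receptor, had 2 against 127 (-2.63, -5.69 to -0.74), and Retnlg 94 against 2936 (-1.60, -1.91 to -1.31). S100a8 had 1220 against 19379 (-0.63) and S100a9 1502 against 22869 (-0.56), whereas Il1b, a cytokine, was at 0.00 (-0.17 to 0.16) with 320 against 3303. The summed list was at -0.60 (-0.64 to -0.56), but this direction rested on a few other barcodes: without the 1% of other barcodes richest in the list, it was 1.23 (1.18 to 1.27). It was also 0.60 (0.53 to 0.67) when both sets were kept below 1500 other UMIs.

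Few genes outside the red-cell lists were higher. By the rule for naming, 11 genes could be named as higher, and without the 16 only Bpgm, Iglc1, Rnf225 and Ier5l of them passed. Iglc1, an immunoglobulin light-chain constant region, had 851 UMIs against 1640 (2.42, 2.30 to 2.54) and was not found in any of the 16. It was present in 477 of the 1110, with at most 11 UMIs in 1, whereas 1 other barcode held 309. Rnf225, encoding a ring finger protein, had 90 against 447 (1.05, 0.71 to 1.38) and Ier5l 71 against 355 (1.04, 0.65 to 1.41). None of these 3 was higher when both sets were kept below 1500 other UMIs, where Iglc1 was at -0.09, Rnf225 at -0.73 and Ier5l at -0.05. Isg15, encoding a ubiquitin-like protein induced by interferon, was at 1.27 (1.0 to 1.53), but 82 of its 147 UMIs stood in the 16, of which 52 in 1 barcode, and without them it was at 0.11 (-0.28 to 0.48). Rsad2, encoding the antiviral protein viperin, was at 3.36 (2.92 to 3.81), with 73 of its 86 UMIs in 12 of the 16. They were the only higher genes of 14 in the interferon-stimulated list.

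The genes with the lowest ratios were scarce ones. Of 159 that could be named as lower, the 15 with the lowest ratios ran from -2.33 to -1.49, and each was found in 5.03% to 10.3% of other barcodes and 0.444% to 1.51% of the 1126. These shares were not taken at equal depth. The median of other UMIs was 3679 in the other barcodes and 1041 in the 1126, which by itself lowers the share in the 1126. Hnrnpll, a splicing regulator of Ptprc, led with 5 UMIs against 259 (-2.33, -3.97 to -1.09). Kansl1l was also among them (-1.74, -2.97 to -0.75). Vti1a, a SNARE of vesicle fusion (-1.68), Mapkap1, a subunit of the mTORC2 kinase complex (-1.66), Pja2, a ubiquitin ligase (-1.63), and Lpin2, a lipin of lipid synthesis (-1.61), belonged to the 15 too. So did Zfhx2 (-1.57), Hspa4l, a chaperone (-1.52), Selenoi (-1.52), Cep170 (-1.52), Camsap2 (-1.50) and Atp8b4 (-1.49).

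**Figure D5:**
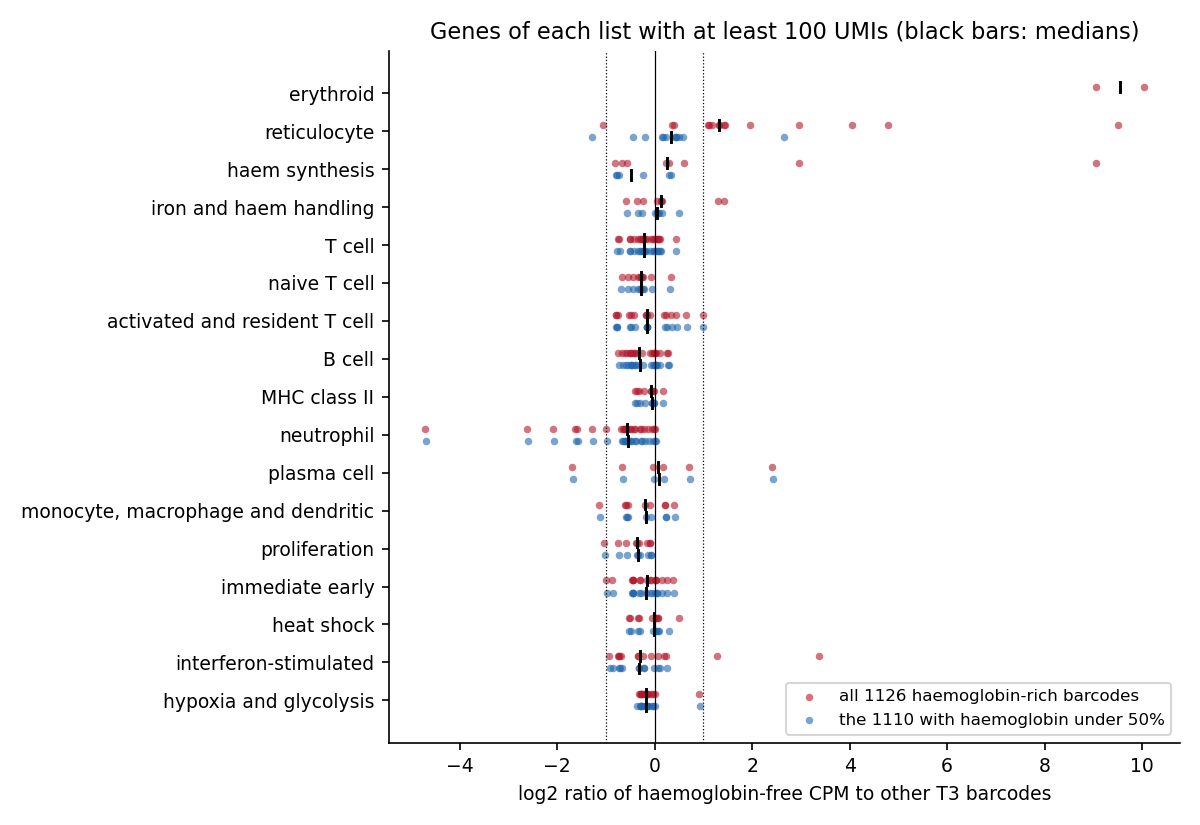
Log2 ratio of haemoglobin-free CPM, haemoglobin-rich over other T3 barcodes, for each gene with at least 100 UMIs in 17 gene lists, with all 1126 barcodes (red) and with the 1110 that are under 50% haemoglobin (blue); black bars are list medians and dotted lines mark 2-fold. The reticulocyte median falls from 1.32 to 0.33 without the 16 barcodes, and the T-cell and B-cell genes stay between the dotted lines.

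Among other cell types, plasma cell and epithelial transcripts were higher in sum. The plasma cell list held 2026 UMIs, or 1621 CPM against 831 (0.96, 0.89 to 1.03), with 1 gene higher (Iglc1) and 1 lower (Prdm1, -1.70) of 6. Most of the Igha UMIs in its comparison sum stood in a single other barcode, and the sum without that barcode was not computed. The epithelial list held 103 UMIs (1.23, 0.90 to 1.54), with 1 higher of 3, Lgals4, encoding galectin 4 of gut epithelium (39 UMIs against 83, 2.27, 1.69 to 2.84). Without the 16 and with both sets below 1500 other UMIs, these sums were at 0.14 (0.03 to 0.24) and 0.50 (-0.01 to 1.03), no gene of either list passed the rule, and Lgals4 was at 0.32 with 28 UMIs against 22. Of 10 platelet and megakaryocyte genes 8 had no UMI, and the list summed to 2 UMIs in all 1126 barcodes. None of 9 monocyte, macrophage and dendritic genes passed the rule in the 1126. Without the 16 and with both sets below 1500 other UMIs, Lyz2 (1.53) was higher, 1 of 3 with enough UMIs. There the list sum was at 0.43 (0.25 to 0.62), beside -0.12 in the 1126. The stromal and endothelial list summed to 77 UMIs with 6 of its 10 genes at 0, and the mast cell, basophil and eosinophil list to 48.

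By the fixed-count threshold, a haemoglobin-rich barcode was most often of middling depth within the shallow range. The haemoglobin-rich share was 30.9% of T3 barcodes with fewer than 750 other UMIs, 45.1% from 750 to 1000 and 62.4% from 1000 to 1500. It was 36.5% from 1500 to 2000, 10.7% from 2000 to 3000, 0.578% from 3000 to 5000 and 0.646% above. Among the 1110, median haemoglobin over the first 3 of these ranges was 16, 28.5 and 36 UMIs, or 2.46, 3.25 and 2.99 per 100 other UMIs. In the barcodes below the threshold the median was 1 haemoglobin UMI in every range. Because the threshold is a fixed count, a shallower barcode needs a higher haemoglobin share to pass it. The threshold by itself can thus lower the haemoglobin-rich share below 750 other UMIs. The medians of the haemoglobin-rich barcodes are likewise of barcodes already past the threshold. How far the threshold sets the pattern over depth was not tested.

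The 11 deepest of the 1110, with at least 3000 other UMIs, were not of 1 kind. T-cell and B-cell UMIs stood together in 6 of them (54.5%), and T-cell, B-cell and S100a8 or S100a9 UMIs in 4. At least 5 T-cell UMIs were found in 9 of the 11. In 3 barcodes haemoglobin reached 29.0%, 28.4% and 14.3% of UMIs (2122, 2288 and 1020 UMIs), beside 15, 12 and 11 T-cell UMIs and 0 B-cell and 0 S100a8 or S100a9 UMIs. Hbb-bt was 1.32%, 0.787% and 0.980% of their haemoglobin, below the 5.25% that was the lowest value of the 13 barcodes with many red-cell transcripts. Another barcode held 122 haemoglobin UMIs with 32 B-cell UMIs and no T-cell UMI. The last 4 barcodes named thus paired haemoglobin with 1 lymphocyte lineage, not with the mixture found in the shallow barcodes. No doublet caller was run, and barcodes were not sorted into droplets with 1 cell, several cells or none, so the 1110 cannot all be taken as cells. The part of cell doublets and of RNA from outside the cells in these values was not tested.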

How the data were processed

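The authors deposited UMI counts per gene and barcode for each library, unnormalized whole numbers per the file headers. Per the submitters' processing notes, the build was GRCm38 and the tools included Cell Ranger 3.1.0, CASAVA 1.8 and Seurat 3.1.4, with no roles given, and the kit is the 10x Chromium V3.1 3′ kit per the labels' protocols. The annotation is not given in the sources used here. No deposited barcode had fewer than 500 UMIs, which shows a filter before deposit. Whether reads in introns or on the opposite strand were counted is not stated, so overlapping genes are uncertain.

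The members and gene lists were chosen with earlier results of these data known. Gene IDs were matched to GENCODE names for 30766 of 30905 genes, and 1 gene of the lists, Ahsp, was unmatched. Of T3 barcodes, 173 had fewer than 200 genes and 1142 more than 20% mitochondrial UMIs, 79 of them both. No doublets were removed. UMIs were summed per set without the haemoglobin genes and scaled to 1000000 (CPM). Ratios carry exact conditional intervals and shares Clopper-Pearson intervals at 95%, which cover counting error only. Barcodes are not replicates, so no test was made. Genes outside the lists were named by rule: up to 15 with the largest ratio each way among genes past the rule of size and found in at least 5% of the barcodes of the higher set, leaving out mitochondrial, ribosomal protein, receptor segment and predicted genes. A few genes of the lists and of the naming rule are left unreported. Reduction to 500 UMIs used 1 random draw per barcode and left out 7 of the 1110 and 13 of the 3417 barcodes. The summing and intervals were tested on simulated data. Alternatives were other haemoglobin thresholds, mitochondrial and depth limits, equal weight per barcode, a lower UMI minimum and sets without the haemoglobin-dominated barcodes. Python 3.11.15, NumPy 2.4.6, SciPy 1.17.1, pandas 2.3.3, Biopython 1.88 and Matplotlib 3.10.9 were used.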

Additional observations from a re-analysis of the deposited data

Results flagged for a closer look

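The filters left out 89 T3 barcodes with at least 10 haemoglobin UMIs, and these held more haemoglobin than the retained ones, with 342327 of the library's 539846 haemoglobin UMIs (63.4%). They stand here because they are a signal outside the main comparison, above the level in C, which had 0 such barcodes, and in T1, which had 1 (2833 haemoglobin UMIs, 95.8% of that barcode). Of the 89, 83 had fewer than 200 genes and 6 had more than 20% mitochondrial UMIs. Haemoglobin was at least 50% of UMIs in 83 and at least 90% in 76. Alas2, Slc4a1 or Bpgm was found in 64 of them, with 434 UMIs of Alas2 in 63 barcodes and 247 of Bpgm in 40. At least 1 UMI of the 6 T-cell genes was found in 21, of the 7 B-cell genes in 17 and of S100a8 or S100a9 in 16, at a median of 158 other UMIs.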

How the results depend on the processing

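With thresholds of 5, 20 and 50 haemoglobin UMIs the haemoglobin-rich share of T3 was 28.4%, 19.6% and 5.33%, and with at most 10% mitochondrial UMIs 17.6%. Genes higher (43) became 28 at a threshold of 5 UMIs, 121 at 50, 78 with at most 10% mitochondrial UMIs, 17 without the 16 haemoglobin-dominated barcodes, 70 with equal weight per barcode and 120 with a minimum of 20 UMIs. Genes lower (287) became 143 at a threshold of 5 and 1009 with equal weight. The summed erythroid and reticulocyte log2 ratio (0.80) was 0.64, 0.88 and 1.79 at thresholds of 5, 20 and 50, 1.15 at 10% mitochondrial, 0.50 with at least 1000 other UMIs, 0.24 without the 16 and 1.04 with equal weight. The T-cell sum (-0.13) was -0.081 at 5, -0.087 at 50 and -0.031 with equal weight. The B-cell sum (-0.24) was -0.33 at 5, -0.18 at 50, -0.18 at 10% mitochondrial, -0.17 with at least 1000 other UMIs and -0.71 with equal weight. The neutrophil sum (-0.60) was -0.81 at 50, -0.89 at 10% mitochondrial, -0.66 with at least 1000 other UMIs and -0.44 with equal weight.

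Some alternatives were chosen after seeing the data. With both sets below 1500 other UMIs, 276 genes were higher and 940 lower, and the sums were 1.24 (erythroid and reticulocyte), -1.23 (B cell), 0.046 (T cell, direction reversed) and 0.60 (neutrophil, direction reversed). Without Ubb, whose 32511 UMIs lead the comparison sum, the erythroid and reticulocyte ratio was 1.82. Without the 1% of other barcodes richest in each list, the B-cell sum was -0.14, the T-cell sum -0.088 and the neutrophil sum 1.23 (direction reversed). Apart from these settings' construction, the cause of the shifts was not tested. The remaining 17 values kept their direction and lay within the counting interval or, for counts of genes, within 1.5 times. No paired analysis was possible because each group has 1 library.

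The precision of a ratio is limited by the smaller of its counts. The haemoglobin-rich barcodes held 1250049 UMIs in all without haemoglobin, and for Slc4a1 and Alas2 the smaller count was that of the other barcodes (0 and 5 UMIs).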
